A study of Rattus norvegicus with 8 samples.

Results

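The G1 cyclins and their kinases are 8 genes of the 32883 listed in the table of cultured rat oligodendrocyte precursor cells. They were taken by gene symbol as the D cyclins Ccnd1, Ccnd2 and Ccnd3, the E cyclins Ccne1 and Ccne2, and the kinases Cdk2, Cdk4 and Cdk6, and each symbol matched 1 row. RNA was sequenced from primary precursor cells of male and of female Sprague Dawley rats, with 4 libraries of each sex. The source was cerebral cortex of animals 1 to 2 days old. Cells were collected as the non-adherent cells of mixed glia grown with 20% serum, and were then kept 4 to 5 days with PDGF and FGF at 10 ng/ml each. All cultures shared these conditions, and sex was the only factor in the labels. Whether libraries of the same sex had separate animals or litters as their source is not in the labels, so the p-values speak only of variation among these libraries, part of which may be technical.

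Values were the authors' FPKM, which divide fragments by transcript length and library size, so that levels of different genes can be set side by side. The number of fragments behind them is unknown. Steps between low values gave a depth relative to male 1 of 0.553 to 1 in male libraries and 0.303 to 0.981 in female libraries. Every difference is that of the male minus the female mean of log2(FPKM + 1), with its standard error. Genes that averaged 1 FPKM or more, 11263 in all, were tested with limma, and those with a Benjamini-Hochberg adjusted p under 0.05 over all of them are termed called. All 6 markers of oligodendrocyte precursors were above 0 in every library, and they summed to 1970 to 2090 FPKM in male and 2330 to 2490 FPKM in female cultures. All 6 had a negative difference (median -0.36), and Pdgfra (-0.40 ± 0.07, limma adjusted p = 0.0103) and Sox10 (-0.35 ± 0.08, adjusted p = 0.0327) were called as lower in male cultures. Sox10 kept its call on leaving out male 1 but on leaving out no other library. Of 7 oligodendrocyte markers 3 had a positive difference, and Myrf (-1.27, adjusted p = 0.00351) and Cnp (-0.61, adjusted p = 0.00415) were called as lower in male cultures, and the 7 summed to 546 to 636 FPKM in male and 668 to 807 FPKM in female cultures. Male and female cultures also differed in the markers of other cells. All 11 tested microglia markers had a negative difference and 8 were called as lower in male cultures, and the 12 analysed summed to 36.0 to 51.4 FPKM in male and 147 to 180 FPKM in female cultures. The microglia marker Cx3cr1 lost its call on leaving out male 3, male 4, female 1, female 2 or female 4. Of 11 tested neuron markers 6 had a positive difference and 4 were called, all as higher in male cultures. They were Gad1 (2.05, limma adjusted p = 7.33e-05), Gad2 (1.31, adjusted p = 0.000927), Syt1 (0.78, adjusted p = 0.00661) and Stmn2 (0.62, adjusted p = 0.0328). Stmn2 kept its call on leaving out female 4 but on leaving out no other library. The 12 analysed neuron markers summed to 347 to 385 FPKM in male and 320 to 446 FPKM in female cultures, with Slc17a7 listed at 0 everywhere. No astrocyte marker of the 6 tested was called (198 to 217 FPKM summed over 8 in male, 194 to 214 FPKM in female cultures). Fibroblast and endothelial markers reached at most 0.195 FPKM summed over 5, in a male library, with Col1a2, Dcn and Cldn5 at 0 everywhere. The part of these markers and cells in the results below was not tested. In bulk samples, fewer cells of a type and less RNA per cell cannot be told apart.

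D cyclins are made when growth factors such as PDGF and FGF act on a cell, and they bind and activate Cdk4 and Cdk6. These kinases begin to phosphorylate the retinoblastoma protein, which frees E2F factors to switch on the genes of S phase, the E cyclins among them. Cyclin E with Cdk2 then completes that phosphorylation and starts DNA replication. In oligodendrocyte precursors this machinery decides between a further division and exit from the cycle, which precedes differentiation.

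RefSeq's table of rat promoters (assembly GRCr8, 250 bases before to 50 after the start of a gene) holds Ccnd3, Ccne1, Cdk2 and Cdk4. The promoters of Ccne1, a cyclin gene that was called, and of Cdk4, a kinase gene that was not, are shown with the motif that each holds 3 times. The Ccne1 promoter spans chr1:99927860-99928159 on the minus strand, and capitals mark the GC box GGGCGG, the usual site of Sp family factors. The Cdk4 promoter spans chr7:64771203-64771502 on the plus strand, and capitals mark the E-box CACGTG, the site bound by Myc and Max.
Ccne1: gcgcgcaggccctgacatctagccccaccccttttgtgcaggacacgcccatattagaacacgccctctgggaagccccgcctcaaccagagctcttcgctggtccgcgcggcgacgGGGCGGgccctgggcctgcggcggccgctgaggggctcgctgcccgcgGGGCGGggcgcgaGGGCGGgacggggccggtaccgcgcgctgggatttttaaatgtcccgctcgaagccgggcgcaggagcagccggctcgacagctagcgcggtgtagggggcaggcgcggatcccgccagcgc
Cdk4: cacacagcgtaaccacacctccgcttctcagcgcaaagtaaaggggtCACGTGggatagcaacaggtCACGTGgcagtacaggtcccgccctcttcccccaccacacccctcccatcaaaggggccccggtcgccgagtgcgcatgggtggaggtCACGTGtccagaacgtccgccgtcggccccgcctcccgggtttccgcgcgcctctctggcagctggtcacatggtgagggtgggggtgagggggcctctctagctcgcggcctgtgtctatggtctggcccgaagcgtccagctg
Both strands were searched, no marked matches overlap, and each sequence is written 5′ to 3′ along its gene. The E-boxes of Cdk4 begin 203, 183 and 95 bases before the start, and 6.42% of all 33469 promoters of this length hold at least 1. The GC boxes of Ccne1 begin 133, 85 and 72 bases before the start, and 33.1% of all promoters hold one. Cdk4 also holds 1 GC box, and Ccnd3 and Cdk2 hold 3 and 4. The core TGACGT of the cyclic AMP response element was found once in Ccnd3 and once in Cdk2 (7.94% of all promoters). The E2F site, searched as TTTCCCGC, TTTCGCGC, TTTGCCGC and TTTGGCGC, occurs in 2.14% of all promoters and matched none of the 4 members. A match is only a description of the letters.

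Of the 8 members 4 were called, all higher in male cultures, where 6.04% of all tested genes were called, 3.14% as higher and 2.89% as lower in male. All 8 passed the filter on low values and were tested. They were the cyclins Ccnd1, Ccnd2, Ccne1 and Ccne2, while Ccnd3 and the 3 kinases were not called. In 6 members, these 4 with Ccnd3 and Cdk2, every male library lay above every female one, as it did in 7.26% of all tested genes. In no member did every male library lie below every female one, as in 6.77% of all tested genes. The median difference of the members was 0.37, against -0.0038 over all tested genes. The members were chosen with earlier results of these data known, so these counts are no independent support. The number called was 2 on leaving out any 1 library but male 1 (4 called) or female 2 (3 called), and 2 with the relative depth of the libraries in the model, the 2 being Ccnd1 and Ccne1 each time.

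**Figure D1:**
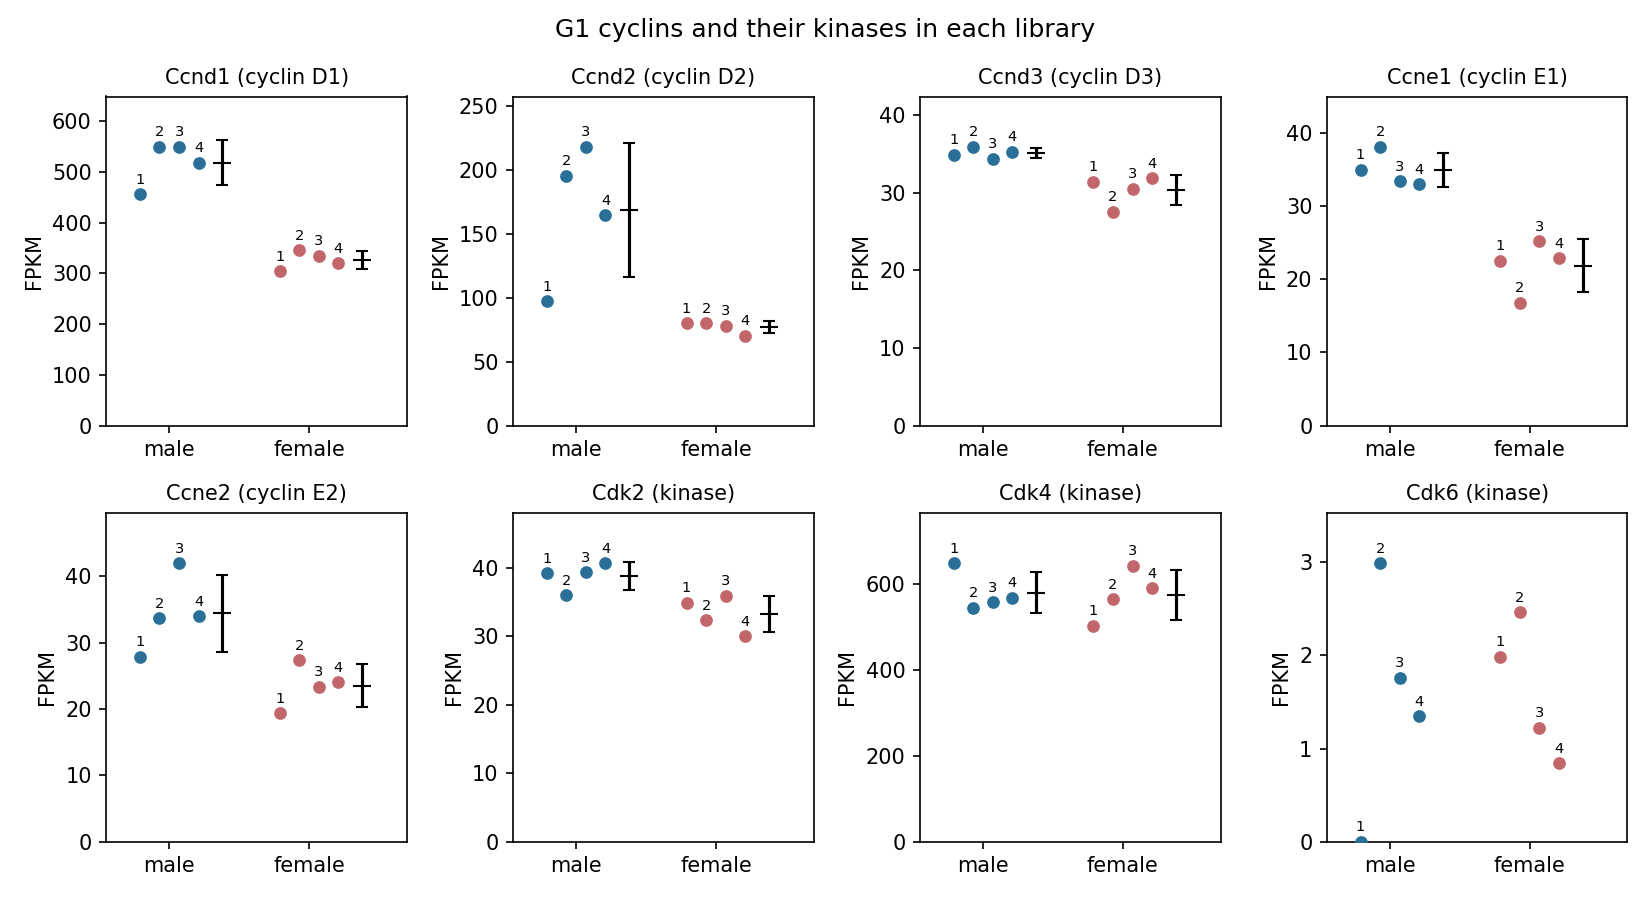
FPKM (vertical axes, linear, from 0) of the 8 genes in the 4 male libraries (blue) and the 4 female libraries (red), with the library number above each point and bars for the mean ± SD. Ccnd1 lies between 456 and 549.9 FPKM in male and between 305 and 346 FPKM in female libraries, whereas the Cdk4 points of the sexes overlap. No mean is drawn for Cdk6, which is listed at 0 in male 1.

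Among the D cyclins, Ccnd1 (ENSRNOG00000020918, cyclin D1) was the most abundant in every library. It stood at 456, 549.9, 549.9 and 518 FPKM in male 1 to 4, against 305, 346, 335 and 320.4 FPKM in female 1 to 4. The lowest male library, male 1, was still above the highest female one. Mean levels were 518 ± 44.4 FPKM in male and 327 ± 18.0 FPKM in female cultures (SD, n = 4 each), a difference of 0.66 ± 0.07 (limma adjusted p = 0.00087). The call held without each library in turn (adjusted p of 0.000294 to 0.00559) and with relative depth in the model (adjusted p = 0.00197).

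Ccnd2 (ENSRNOG00000057710, cyclin D2) showed the largest difference of the 8 genes and, in FPKM, the largest SD among male libraries. It had 97.5, 196, 219 and 165 FPKM in male 1 to 4, and 80.3, 80.4, 78.2 and 70.5 FPKM in female 1 to 4. Male 1 lay close to the female libraries and the other 3 male libraries well above them. Means were 169 ± 52.6 FPKM in male and 77.4 ± 4.70 FPKM in female cultures, 2.19 times as high in male (1.06 ± 0.22, limma adjusted p = 0.0281). Without male 1 the difference was 1.30 (adjusted p = 0.000121). Ccnd2 missed the threshold without any other single library (highest limma adjusted p 0.091), and also with relative depth in the model (0.0674).

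Ccnd3 (ENSRNOG00000050258, cyclin D3) was the least abundant D cyclin and the steadiest in male libraries. Its values were 34.9, 35.9, 34.4 and 35.3 FPKM in male 1 to 4, against 31.4, 27.6, 30.5 and 31.8 FPKM in female 1 to 4. The sexes did not overlap, although the step between them was small. At 35.1 ± 0.657 FPKM in male and 30.3 ± 1.93 FPKM in female cultures it was not called (0.21 ± 0.07, 95% interval 0.04 to 0.37 before adjustment, limma adjusted p = 0.138).

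Summed, the D cyclins came to 588, 782, 803 and 719 FPKM in male 1 to 4, against 417, 454, 444 and 423 FPKM in female 1 to 4. Shares within a family do not depend on how a library is scaled, and 5 shares were compared by exact two-sided permutation tests over the 70 assignments of libraries, with Benjamini-Hochberg adjustment over the 5. Cyclin D1 made up 77.5%, 70.4%, 68.5% and 72.1% of the summed D cyclins in male 1 to 4, against 73.2%, 76.2%, 75.5% and 75.8% in female 1 to 4. The sexes overlapped, since male 1 had the highest share of all 8 libraries (72.1% ± 3.87 in male, 75.2% ± 1.37 in female, exact p = 0.229, adjusted 0.381). The share of Ccnd2 was 16.6%, 25.0%, 27.2% and 23.0% in male 1 to 4, against 19.3%, 17.7%, 17.6% and 16.7% in female 1 to 4. Its 3 highest shares were in male 2, male 3 and male 4, and its lowest was in male 1 (exact p = 0.143, adjusted 0.357). Without male 1 the Ccnd2 share differed by 7.26 percentage points (exact p = 0.0286, the smallest that 35 assignments allow), against 5.13 points with all libraries. The Ccnd1 share then differed by -4.85 points (the same exact p), against -3.06 points with all libraries. Leaving out any other single library gave an exact p of 0.143 to 0.2 for the Ccnd2 share and 0.2 to 0.4 for the Ccnd1 share. These p-values are not adjusted, and male 1 was singled out after its shares were seen.

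Cyclin D3 contributed 5.93%, 4.60%, 4.28% and 4.91% of the summed D cyclins in male 1 to 4, and 7.54%, 6.07%, 6.88% and 7.53% in female 1 to 4. All male shares lay below all female ones, with a mean difference of -2.08 points (4.93% ± 0.717 against 7.01% ± 0.698). The exact p of 0.0286 is the smallest that 70 assignments allow, and the share missed the threshold after adjustment (0.143). With 5 shares adjusted together, 1 share alone at this smallest p cannot get under the threshold. By mean level, male cultures had 1.59 times the Ccnd1, 2.19 times the Ccnd2 and 1.16 times the Ccnd3 of female cultures. The adjusted share tests cannot decide whether these folds differ.

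**Figure D2:**
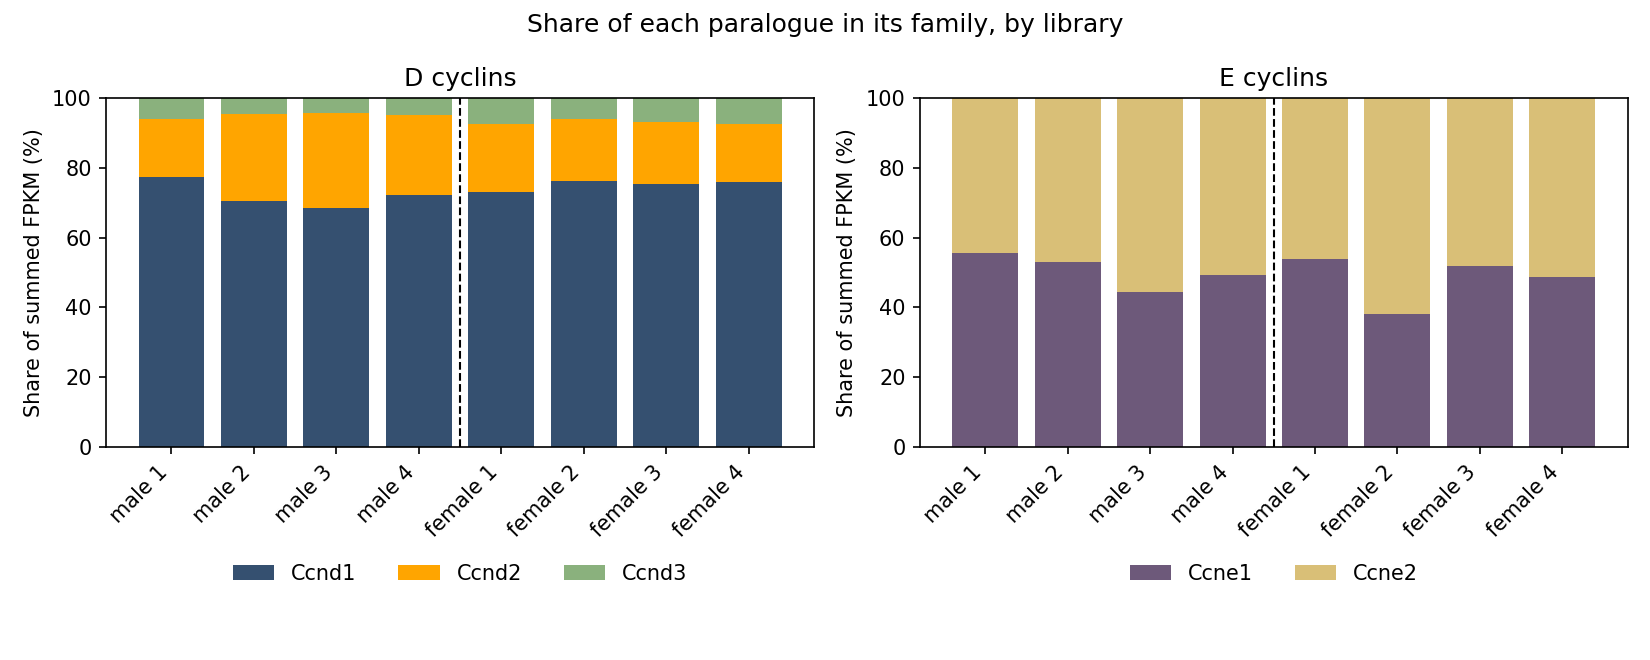
Share of each gene in the summed FPKM of its family (vertical axis, percent) in each library, male left of the dashed line and female right of it. Ccnd1 holds 68.5% to 77.5% of the D cyclins, and the Ccnd2 band is widest in male 2, male 3 and male 4, while the E cyclin bands differ more within a sex than between the sexes.

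The E cyclins were both called, at nearly equal levels. Ccne1 (ENSRNOG00000014786) stood at 35.0, 38.1, 33.4 and 33.0 FPKM in male 1 to 4, against 22.5, 16.8, 25.2 and 22.9 FPKM in female 1 to 4. The sexes were well apart, and female 2 was the lowest library. Means were 34.9 ± 2.32 FPKM in male and 21.9 ± 3.58 FPKM in female cultures (0.66 ± 0.12, limma adjusted p = 0.0089). Ccne1 remained called without each library in turn (adjusted p of 0.00645 to 0.0367).

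Ccne2 (ENSRNOG00000008055) had 27.9, 33.6, 42.0 and 34.0 FPKM in male 1 to 4, and 19.3, 27.4, 23.4 and 24.0 FPKM in female 1 to 4. Male 1 and female 2 almost met, while the other libraries of the sexes stood apart. Means were 34.4 ± 5.80 FPKM in male and 23.5 ± 3.30 FPKM in female cultures (0.52 ± 0.13, limma adjusted p = 0.0404). Ccne2 lost its call on leaving out any 1 of male 2, 3 or 4 or of female 1, 3 or 4 (highest limma adjusted p 0.113). It also lost the call with no filter on low values (adjusted p = 0.0739) and with relative depth in the model (adjusted p = 0.0994).

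Between the E cyclins, Ccne1 made up 55.6%, 53.1%, 44.3% and 49.3% in male 1 to 4, and 53.8%, 38.1%, 51.9% and 48.8% in female 1 to 4. The shares of the sexes overlapped (50.6% ± 4.94 in male, 48.1% ± 7.04 in female, exact two-sided permutation p = 0.629, adjusted 0.786). Together both E cyclins summed to 62.8, 71.7, 75.4 and 67.0 FPKM in male 1 to 4, against 41.9, 44.2, 48.6 and 46.9 FPKM in female 1 to 4.

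Cdk4 (ENSRNOG00000025602), a kinase of the D cyclins, had the highest mean FPKM of the 8 genes and was not called. It stood at 650.1, 546, 559 and 569 FPKM in male 1 to 4, against 504, 566, 643 and 592 FPKM in female 1 to 4. The highest values were in male 1 and female 3, and the sexes overlapped. Those libraries were also the deepest (relative depth 1 and 0.981), and female 1, the lowest in Cdk4, was the shallowest (0.303). The libraries between did not keep this order, with female 2 (0.3665) above male 2 (0.5528) and male 3 (0.7685) in Cdk4. The part of depth in the Cdk4 values was not tested. Means were 581 ± 47.0 FPKM in male and 576 ± 58.0 FPKM in female cultures (0.01 ± 0.08, 95% interval -0.17 to 0.20, limma adjusted p = 0.947). With relative depth as a covariate the difference was -0.08 (adjusted p = 0.477), so its sign depends on the fit.

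Cdk6 (ENSRNOG00000009258), the other kinase of the D cyclins, had the lowest listed values of the 8 genes. The table lists it at 0, 2.99, 1.76 and 1.35 FPKM in male 1 to 4, and at 1.98, 2.46, 1.22 and 0.845 FPKM in female 1 to 4. Zero was listed in the deepest library, and a 0 in a table without counts can also be a failed estimate. The sexes overlapped and the difference was not called (-0.18 ± 0.38, 95% interval -1.03 to 0.67, limma adjusted p = 0.845), and its sign turned without male 1 (0.21). Of the sum of both kinases Cdk6 made up 0% to 0.545% in male and 0.143% to 0.433% in female libraries (exact two-sided permutation p = 0.914, adjusted 0.914).

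Cdk2 (ENSRNOG00000006469), the partner of the E cyclins, differed little. It had 39.2, 36.0, 39.4 and 40.7 FPKM in male 1 to 4, against 34.9, 32.4, 35.9 and 30.0 FPKM in female 1 to 4. The sexes just failed to overlap, with male 2 next to female 3. Means were 38.8 ± 2.01 FPKM in male and 33.3 ± 2.63 FPKM in female cultures, which was not called (0.22 ± 0.08, 95% interval 0.04 to 0.39 before adjustment, limma adjusted p = 0.151).

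Reads of some members can be shared with a neighbour whose span overlaps theirs in the RefSeq gene table, since the use of strand in counting is not given in the sources used here. These neighbours are Ints8 for Ccne2, Pmel for Cdk2 and Tspan31 for Cdk4, along with unnamed long noncoding RNAs for Ccnd3 and Cdk6. Pmel, 8.0 ± 0.563 FPKM in male and 15.3 ± 2.81 FPKM in female cultures, differed in the opposite direction to Cdk2 (-0.84 ± 0.14, limma adjusted p = 0.00654). Tspan31 stood at 134.5, 117, 99.9 and 110.3 FPKM in male 1 to 4 and at 95.3, 98.8, 133 and 110.1 FPKM in female 1 to 4, highest in male 1 and female 3 as Cdk4 was. Ints8 was not called (15.9 ± 0.794 FPKM in male, 17.3 ± 0.714 FPKM in female cultures, adjusted p = 0.483). How far shared reads enter the values of the members was not tested.

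**Figure D3:**
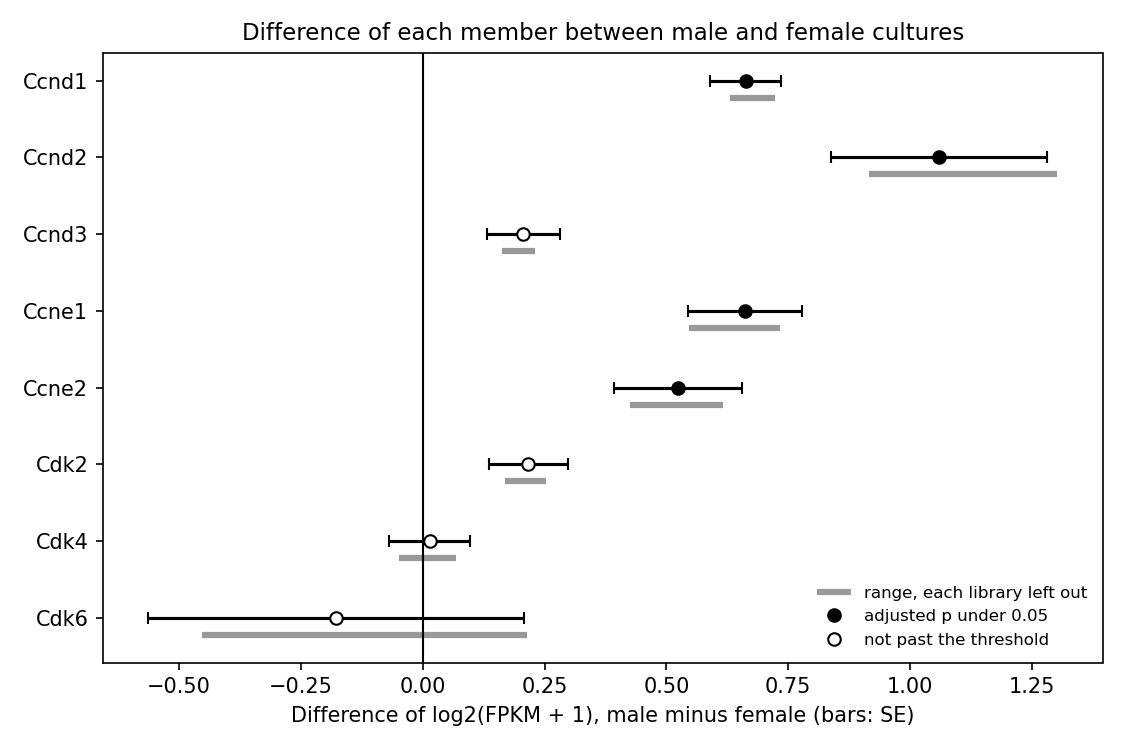
Difference of log2(FPKM + 1), male minus female (horizontal axis), with its standard error for each of the 8 genes, filled where the adjusted p was under 0.05, and in grey the range of the difference when each library is left out in turn. The 4 filled points lie between 0.52 and 1.06, and only the grey bars of Cdk4 and Cdk6 cross 0.

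In order of mean FPKM over all 8 libraries the members were Cdk4 (579), Ccnd1 (423), Ccnd2 (123), Cdk2 (36.1), Ccnd3 (32.7), Ccne2 (28.9), Ccne1 (28.4) and Cdk6 (1.58). Some neighbours in this order were not separated. Cdk4 was above Ccnd1 in all 4 female libraries and in 3 of the 4 male ones, where the means were 581 ± 47.0 and 518 ± 44.4 FPKM. Ccne2 was above Ccne1 in 4 of 8 libraries. Cdk2 exceeded Ccnd3 in 7 of 8 libraries and Ccnd3 exceeded Ccne2 in 7 of 8. Ccnd1 exceeded Ccnd2, Ccnd2 exceeded Cdk2 and Ccne1 exceeded Cdk6 in all 8.

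Cyclin levels were also set against those of their kinases, as a description. D cyclin FPKM over the sum of Cdk4 and Cdk6 gave ratios of 0.905, 1.42, 1.43 and 1.26 in male 1 to 4, against 0.823, 0.800, 0.688 and 0.713 in female 1 to 4. Every male ratio lay above every female one, and only male 1 among male libraries was below 1. E cyclin FPKM over Cdk2 gave 1.60, 2.00, 1.91 and 1.65 in male 1 to 4, and 1.20, 1.36, 1.35 and 1.56 in female 1 to 4. These sexes also did not overlap, with male 1 next to female 4.

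Male 1 was thus the male library nearest to the female ones in Ccnd1, Ccnd2 and Ccne2 and in both ratios, but not in Ccnd3, Ccne1 or Cdk2. Of all pairs of a male and a female library, male 1 and female 3 deviated most alike from their group means (r = 0.242 over 11263 genes, which are not independent). This pair was picked from these data, so its removal is no independent check. Leaving out male 1 alone already widened the differences of Ccnd1, Ccnd2 and Ccne2. Without both libraries all 4 calls were kept. The differences were then 0.74 for Ccnd1, 1.31 for Ccnd2, 0.73 for Ccne1 and 0.62 for Ccne2 (limma adjusted p of 0.000529, 0.000553, 0.0119 and 0.0311).

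The genes around the G1 kinases were taken from 8 lists with 85 distinct genes, of which 77 were tested, 21 were called as higher in male cultures and 1 was called as lower. Of all tested genes 6.04% were called, 3.14% as higher and 2.89% as lower in male cultures. A single called gene in a short list is therefore not read as a result about that list. Among 6 tested CDK inhibitors 1 was called. This was Cdkn1a, which encodes p21, an inhibitor of cyclin E with Cdk2, at 238, 263, 251 and 218 FPKM in male 1 to 4 and at 133, 155, 174 and 136 FPKM in female 1 to 4. All male values lay above all female ones (0.69 ± 0.09, limma adjusted p = 0.00252), and the call held without each library. Cdkn1b, which encodes p27, the inhibitor linked to cell cycle exit of these precursors, had 60.4 ± 2.99 FPKM in male and 57.2 ± 5.65 FPKM in female cultures (0.08 ± 0.08, adjusted p = 0.617). The only tested inhibitor with a negative difference was Cdkn1c, at 13.3 ± 2.61 FPKM in male and 20.9 ± 5.07 FPKM in female cultures. All its male values lay below all female ones, but it was not called (-0.61 ± 0.17, limma adjusted p = 0.0577). Without male 1 or without female 3, or at a mean of at least 5 FPKM, the list held 1 further called gene, lower in male cultures.

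Of 12 tested genes of the retinoblastoma and E2F family 11 had a positive difference and 1 was called (median 0.21). It was Tfdp1, which encodes the partner that E2F factors bind DNA with, at 106 ± 7.22 FPKM in male and 88.5 ± 1.75 FPKM in female cultures (0.25 ± 0.07, limma adjusted p = 0.0484). Its call was lost when any 1 library other than male 1 was left out (highest adjusted p 0.149), with relative depth in the model, with quantile normalization, with no filter on low values and with limma without trend and robust moderation. Rb1, the gene of the retinoblastoma protein, was not called at 23.7 ± 5.37 FPKM in male and 21.6 ± 1.01 FPKM in female cultures (adjusted p = 0.749). The list held 3 called genes, all higher in male cultures, without male 1. E2f1 and Cdkn2d were not analysed here.

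Genes that E2F factors switch on for S phase had a positive difference in 16 of 16 cases and were called in 14 (median 0.50). The 4 with the smallest p were the helicase genes Mcm3 (42.2 ± 2.97 FPKM in male, 27.4 ± 1.90 FPKM in female cultures), Mcm5 and Mcm6 and the sliding clamp gene Pcna (286 ± 8.57 FPKM in male, 197 ± 29.0 FPKM in female cultures). Their differences were 0.60 ± 0.08, 0.70 ± 0.10, 0.67 ± 0.11 and 0.55 ± 0.09 (limma adjusted p of 0.00288, 0.00415, 0.00592 and 0.00759), each called without every single library. The list held 9 called genes without male 2 or male 3, 8 without male 4 or female 4 and 8 with relative depth in the model. Earlier results of these data had already shown these genes to differ, so the list is no independent support.

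In the list of mitotic cyclins and Cdk1 3 of 4 tested genes were called, all higher in male cultures, and 1 of them, Ccna2, is also counted among the S phase entry genes. Cdk1, the kinase of mitosis, stood at 232 ± 6.88 FPKM in male and 165 ± 26.9 FPKM in female cultures (0.50 ± 0.10, limma adjusted p = 0.0146). Ccna2 (0.40 ± 0.10, adjusted p = 0.0406), the cyclin of S phase and G2, and Ccnf (0.34 ± 0.08, adjusted p = 0.0389) followed. None of the list was called without male 2, male 3 or female 4 or with limma without trend and robust moderation, and 1 was called without male 1, male 4, female 1 or female 2, with no filter on low values or with relative depth in the model.

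Cyclin turnover and kinase activation held 1 called gene each, and neither count is read as a result about its list. Skp2 (0.46 ± 0.10, limma adjusted p = 0.0263), which encodes the ubiquitin ligase subunit that targets p27, was called among 11 tested turnover genes (median 0.07). Fbxw7, which encodes the subunit that targets cyclin E, was not (6.87 ± 1.37 FPKM in male, 5.99 ± 2.52 FPKM in female cultures, adjusted p = 0.654). Cdc25a (0.50 ± 0.12, adjusted p = 0.0364), a phosphatase gene whose product activates Cdk2, was called among 8 genes of kinase activation (median 0.15). Skp2 lost its call on leaving out any 1 library but male 1 or female 3. Cdc25a lost its call on leaving out any 1 library but male 1, female 2 or female 3, and also without male 1 and female 3 together. Both lost it with relative depth in the model, and Skp2 also with limma without trend and robust moderation. Conversely, the turnover list held 2 called genes without female 3 and the activation list 2 without male 1.

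Of 13 tested cyclins and kinases that act in transcription none was called by limma, 3 had a positive difference and the median was -0.02. None had an unadjusted p under 0.05 but Ccnk. Ccnk, the cyclin of Cdk12 and Cdk13, had the smallest p, at 23.9 ± 1.01 FPKM in male and 29.1 ± 2.63 FPKM in female cultures (-0.27 ± 0.09, adjusted p = 0.0938). Among 10 other tested cyclins and kinases Ccng1, the gene of cyclin G1, was higher in male cultures (0.40 ± 0.10, adjusted p = 0.0337) and Ccny, the gene of cyclin Y, was lower (-0.26 ± 0.07, adjusted p = 0.0403). Ccng1 lost its call on leaving out any 1 library but male 1, female 2 or female 3, and Ccny on leaving out any 1 but female 3. Both lost it with relative depth in the model, with no filter on low values and with limma without trend and robust moderation, and Ccng1 also with quantile normalization.

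**Figure D4:**
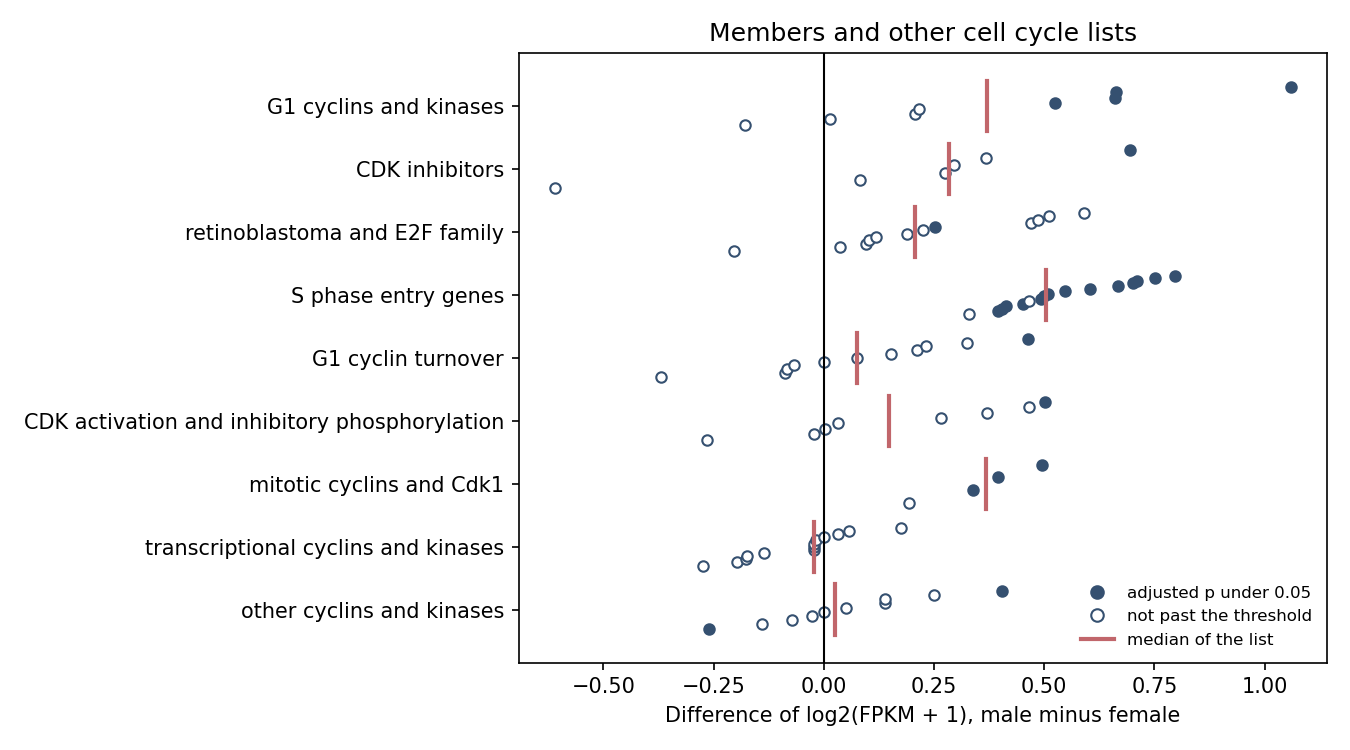
Difference of log2(FPKM + 1), male minus female (horizontal axis), of each tested gene in the 8 members and in 8 lists of other cell cycle and cyclin genes, filled where the adjusted p was under 0.05, with the list median as a red line. The medians of the S phase entry genes (0.50), the members (0.37) and the mitotic genes (0.37) lie highest, and that of the transcriptional cyclins and kinases (-0.02) lies at 0.

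For the 3 most abundant members, the genes most like them over the 8 libraries were looked up among 7969 named genes that averaged 5 FPKM or more, by Pearson r of log2(FPKM + 1). Libraries of one sex share their group and the 8 points their scaling, so r is only a description. Nearest to Ccnd1 were Mms22l, a gene of replication fork repair (r = 0.990), the immediate early transcription factor gene Egr1 (0.989) and Ndfip1 (0.985). Egr1 stood at 36.9, 98.2, 80.1 and 88.2 FPKM in male 1 to 4 and at 9.15, 17.4, 16.8 and 11.4 FPKM in female 1 to 4. Male 1 was its lowest male library, a pattern that the choice by likeness to Ccnd1 favours. Nearest to Ccnd2 were the DNA polymerase gene Pole (0.987), the thymidylate synthase gene Tyms (0.985) and Dusp6, which encodes a phosphatase of ERK (0.984). Dusp6 had 36.6, 48.5, 49.7 and 47.2 FPKM in male 1 to 4 and 34.0, 31.5, 34.6 and 32.3 FPKM in female 1 to 4. Nearest to Cdk4 were Ptms (0.977), Pdrg1 (0.969) and the mitochondrial fission gene Fis1 (0.966). They were highest in male 1 and female 3, which their choice by likeness to Cdk4 likewise favours.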

How the data were processed

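The authors deposited 1 table of FPKM values, with 1 column per library, per the file header. Trimming with Trimmomatic and quality control with FastQC are on record in the submitters' processing notes. For the aligner, the quantification program, the genome build and the use of strand, the sources used here give nothing. FPKM holds no counts, so no count model or counting interval was used and depth is known only relative to male 1, from the commonest ratio of low values. Values were taken as log2(FPKM + 1), genes averaging 1 FPKM or more were kept, and male and female libraries were compared with limma 3.58.1 in R 4.3.3 (mean-variance trend, robust moderation), tested first on simulated data. P-values were adjusted over all tested genes by Benjamini-Hochberg. Shares were tested by exact permutation over libraries, in Python 3.11.15.

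The members, gene lists and tests were chosen with earlier results of these data known. Genes named are all members, the called genes of each list (at most 4 by smallest p, or 1 where none is called), a fixed set of 8 (Cdkn1a, Cdkn1b, Rb1, E2f1, Skp2, Fbxw7, Ccna2 and Cdk1) and the 3 genes most like each of 3 members. Cdkn1c, Cdkn2d, some cell type markers and overlapping neighbours are named outside this rule.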

Additional observations from a re-analysis of the deposited data

How the results depend on the processing

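Of the members, Ccnd1 and Ccne1 kept their direction and call under every alternative run, and Ccnd3 and Cdk2 stayed positive and uncalled. With relative depth as a covariate 367 genes, 2 members and 10 pathway genes were called, against 680, 4 and 22, and the differences were 1.17 for Ccnd2 (adjusted p = 0.0674), 0.525 for Ccne2 (adjusted p = 0.0994), -0.084 for Cdk4 and 0.16 for Cdk6. Ccne2, at 0.52 in both cases, missed the threshold with no filter and with limma without trend and robust moderation, which called 424 genes and 12 pathway genes. Cdk4 was -0.068 after quantile normalization. Without male 1 and female 3 the difference was 0.15 for Cdk6, and it was -2.45 points for the share of Ccnd3 (exact p = 0.1, the smallest possible) and 0.0424 points for that of Cdk6. Same-numbered libraries did not deviate together (r = -0.085, 0.077, -0.064 and 0.036 for numbers 1 to 4). What the numbers stand for is not in the labels, and whether same-numbered libraries share a preparation is unknown. The replicate block called 397 genes and kept all 4 member calls, while Tfdp1, Cdc25a, Ccnf and Ccny were among the pathway genes no longer called, and an exact permutation by sign flips of the pairs gave p = 0.125, the smallest possible, for the Ccnd3 share difference of -2.08 points. Leaving out each library, called genes ranged from 296 to 808, members from 2 to 4 and pathway genes from 9 to 24. Differences ranged from 0.92 to 1.30 for Ccnd2, 0.43 to 0.62 for Ccne2, -0.048 to 0.069 for Cdk4 and -0.45 to 0.21 for Cdk6. Share differences, in points, ranged from -4.85 to -1.85 for Ccnd1, 3.71 to 7.26 for Ccnd2, -2.41 to -1.86 for Ccnd3, -0.93 to 4.52 for Ccne1 and -0.106 to 0.0756 for Cdk6. Cdk6 gave no value at a mean of at least 5 FPKM or as a log2 ratio, since it is low and listed at 0 in male 1. The causes of these shifts were not tested. Depth is unknown, so for Cdk6 neither absence nor a difference can be read from values near 1 FPKM.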
